A study of Rattus norvegicus with 18 samples.

Results

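Hox genes encode homeodomain transcription factors that give cells of the embryo their position along the head-to-tail axis. They lie in 4 clusters, called HoxA, HoxB, HoxC and HoxD, and a gene's place in its cluster follows its paralog number: genes with low numbers act towards the head and genes with high numbers towards the tail. Adult cells often keep part of the Hox pattern of the body region they came from, held by Polycomb repression and trithorax activation. The mark measured here, 5-hydroxymethylcytosine (5hmC), is made from 5-methylcytosine by the TET dioxygenases, which use vitamin C as a cofactor, and in mammals it lies mainly at CpG dinucleotides. The members were all genes whose symbol in the deposited peak list begins with Hoxa, Hoxb, Hoxc or Hoxd and a number. The rule gave 15 of 17003 named RNA identifiers and 31 of 215951 peaks.

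The libraries came from primary rat Schwann cells, the glia that wrap peripheral axons, taken at passage 3 and grown as control or with vitamin C (VitC). Each group had 3 libraries of ribosome-depleted RNA, 3 of DNA immunoprecipitated for 5hmC (hMeDIP) and 3 of genomic input, 18 libraries in all. The sources used here do not give the strain, age or sex of the rats, the vitamin C dose, the length of treatment or the culture medium. Nothing in the labels says that replicates were separate cultures, so a p-value reflects the spread of these libraries only, and that spread may be technical.

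The libraries held 23381814 to 33173282 RNA reads in genes, 24020306 to 39899445 hMeDIP reads in peaks and 7201638 to 9521037 input reads in peaks. Schwann cell markers were abundant, and their summed level was 10824 to 11020 CPM (counts scaled to the reads in genes of each library and by TMM factors) in controls and 9963 to 10821 CPM with VitC, with Cdh19 higher and S100b and Erbb3 lower among 7 tested. Of 6 named fibroblast markers, Dcn and Dpt had no read in any library. The fibroblast sum, nearly all Col1a1, was 4378 to 4565 CPM in controls and 9193 to 10705 CPM with VitC, while the other 2 tested markers, Pdgfra and Pi16, were lower (log2 -1.38 and -0.78). Pericyte and smooth muscle markers summed to 78.2 to 81.3 CPM in controls and 194 to 221 CPM with VitC, with 3 of 4 tested genes higher (Tagln, Des and Pdgfrb). Skeletal muscle markers summed to 78.3 to 121 CPM in controls and 340 to 362 CPM with VitC, with 3 of 3 tested genes higher. Perineurial markers summed to 552 to 573 CPM in controls and 750 to 827 CPM with VitC, with Itgb4 and Ntn4 higher and Sfrp4 and Slc2a1 lower among 5 tested. Endothelial, macrophage and neuronal markers summed to at most 4.21, 2.0 and 71.4 CPM in any library. Over all genes tested, 19.1% were higher and 21.0% lower (edgeR, adjusted p under 0.05). The part of these marker shifts in the results below was not tested. RNA of VitC replicate 1 stood apart from its group, with a chi-square per degree of freedom of 27.7 and 38.6 against the other VitC libraries, which differed from each other by 5.29. hMeDIP control replicates 1 and 3 differed by less than the sampling noise (0.963) and were counted as 1 sample. The hMeDIP comparison is therefore 2 control samples against 3 VitC samples. VitC replicates 1 and 3 also differed by less than the noise (0.896) but were kept apart, because every VitC pair lay under the 1.1 limit; with them summed as well, 21 Hox peaks were again higher and 2 lower, against 36.9% and 36.3% of all peaks.

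HoxB, on chromosome 10, had 7 named genes (Hoxb9, Hoxb7, Hoxb6, Hoxb5, Hoxb4, Hoxb3 and Hoxb2) and 13 peaks over 82850 bp. HoxC, on chromosome 7, had 5 genes (Hoxc10, Hoxc9, Hoxc8, Hoxc6 and Hoxc4) and 10 peaks over 73214 bp. HoxD, on chromosome 3, had 3 genes (Hoxd11, Hoxd4 and Hoxd3) and 8 peaks over 66890 bp. Positions come from the deposited list, and the sources used here name no genome build for it. No peak was named for a Hoxa gene. RefSeq (GRCr8) lists 39 Hox genes, and all 11 of its Hoxa genes lie between Skap2 and Hibadh. The peak list had 38 peaks between Skap2 and Hibadh, none with a Hox name, and its longest stretch without a peak there was 322837 bp on chromosome 4, from 82092402 to 82415240. Only 419 of 215874 gaps between neighbouring peaks (0.194%) were as long or longer. Gene symbols come from the peak list, so RNA of the Hoxa genes was not analysed here.

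None of the 31 Hox peaks covered the transcription start listed for its gene. This holds for most peaks, as only 2.08% of all 109330 peaks assigned to a gene covered a start. The authors' labels put 15 peaks (48.4%) in the class Promoter3k, 3 in Promoter1k and 13 (41.9%) in the gene body, against 10.6%, 4.19% and 84.0% of all gene-assigned peaks. The gene body label does not always mean a place inside the gene. A Hoxb4 peak with this label (chr10:84170186-84170684) starts past the listed end of Hoxb4. The nearest to a start was the peak of Hoxc4, which ended 37 bp upstream. Hox peaks had a median width of 899 bp (range 300 to 4217 bp), against 684 bp for all gene-assigned peaks. The promoters of Hoxc4, whose peak came nearest to its start, and of Hoxd11, the gene whose peak lost the most 5hmC, are shown from RefSeq (GRCr8, plus strand, 250 bases before the start to 50 after it), with each CpG in capitals. RefSeq's start need not be the start in the peak list. The Hoxd11 peak ended 894 bp upstream of its listed start, farther than the 250 bases shown. Its window therefore need not hold any base of the peak that lost 5hmC.
Hoxc4, chr7:136048809-136049108: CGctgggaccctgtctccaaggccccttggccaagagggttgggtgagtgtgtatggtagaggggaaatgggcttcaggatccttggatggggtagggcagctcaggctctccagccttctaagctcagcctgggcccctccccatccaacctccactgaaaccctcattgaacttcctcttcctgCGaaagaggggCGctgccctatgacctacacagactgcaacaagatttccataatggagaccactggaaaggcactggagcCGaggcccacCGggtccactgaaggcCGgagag
Hoxd11, chr3:79992144-79992443: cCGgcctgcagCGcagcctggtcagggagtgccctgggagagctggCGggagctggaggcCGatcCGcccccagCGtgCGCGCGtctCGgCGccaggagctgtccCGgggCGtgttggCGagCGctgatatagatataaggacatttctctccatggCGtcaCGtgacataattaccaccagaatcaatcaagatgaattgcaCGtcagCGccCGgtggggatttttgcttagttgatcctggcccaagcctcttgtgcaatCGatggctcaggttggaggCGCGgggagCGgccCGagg
The Hoxc4 window has 6 CpGs and the Hoxd11 window 25, against a median of 7 over 33469 RefSeq promoters of the same length. At least as many CpGs were found in 56.3% and 16.6% of those promoters. The windows of Hoxd4 and Hoxd3 held 12 and 19 CpGs.

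RNA of the Hox genes was low, and their largest log2 change with VitC was 0.40 in size. Hoxd11, a posterior HoxD gene, had no read in any of the 6 libraries, which allows at most 0.0904 to 0.128 CPM (3 counts per library, counting error only). The other 14 genes were tested, and only Hoxb7 passed: it was lower with VitC. Hoxd3 and Hoxb4 had larger estimates than Hoxb7 but fewer reads and a larger SE. A Hox gene that did not pass is therefore not shown to be unchanged. Of all 12925 genes tested by edgeR's quasi-likelihood test, 40.1% passed at an adjusted p of 0.05 (19.1% higher and 21.0% lower). The median log2 change was -0.10 over the 14 Hox genes and -0.01 over all genes. CPM are not corrected for gene length, so levels are compared between libraries and not between genes. In bulk RNA, fewer cells of a type and less RNA per cell cannot be told apart.

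Hoxb7 had 15.8, 15.8 and 14.5 CPM in the controls and 12.2, 11.6 and 12.3 CPM with VitC. Every control lay above every VitC library. The log2 change was -0.35 ± 0.08 (SE, n = 3 and 3, edgeR adjusted p = 0.0076), and it was -0.36 (adjusted p = 0.0042) without VitC replicate 1. In its cluster, Hoxb4 had 3.21, 2.51 and 3.22 CPM in controls and 2.36, 2.31 and 2.14 CPM with VitC, a log2 change of -0.38 ± 0.15 (edgeR adjusted p = 0.079). With libraries scaled by size only it passed (adjusted p = 0.048), where 25.8% of all genes were lower. Hoxb2, which acts in hindbrain patterning, had 3.32, 3.31 and 3.10 CPM in controls and 2.64, 2.20 and 2.92 CPM with VitC (log2 -0.33 ± 0.15, edgeR adjusted p = 0.105). For both genes the groups did not overlap, but the change did not pass the threshold. Hoxb3 had 7.16 to 8.95 CPM in controls and 6.82 to 8.90 CPM with VitC, Hoxb6 2.16 to 2.75 and 2.45 to 2.95 CPM, and Hoxb5 1.55 to 1.68 and 1.37 to 1.99 CPM. Their groups overlapped, and their log2 changes were -0.08 ± 0.13, 0.13 ± 0.15 and 0.04 ± 0.19. Hoxb9 stayed under 1 CPM in all libraries (log2 -0.13 ± 0.23).

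In HoxC, Hoxc10, the most posterior gene of the cluster among the members, had 1.68, 1.54 and 1.59 CPM in controls and 2.17, 1.91 and 2.0 CPM with VitC. Its log2 change was 0.34 ± 0.15 (edgeR adjusted p = 0.109). Hoxc9 had 3.14, 3.28 and 4.81 CPM in controls and 3.07, 3.07 and 2.88 CPM with VitC (log2 -0.30 ± 0.18, edgeR adjusted p = 0.211). The groups did not overlap for either gene, and for Hoxc9 control replicate 3 lay far above the other controls. Hoxc8 had 6.73 to 9.0 CPM in controls and 6.5 to 7.84 CPM with VitC, Hoxc6 5.94 to 6.39 and 5.85 to 6.5 CPM, and Hoxc4 2.92 to 3.43 and 2.85 to 3.02 CPM. Their groups overlapped, with log2 changes of -0.14 ± 0.13, 0.02 ± 0.10 and -0.13 ± 0.13.

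In HoxD, Hoxd4 had 4.75, 4.72 and 4.73 CPM in controls and 6.18, 5.38 and 5.76 CPM with VitC. Every VitC library lay above the controls, and the log2 change was 0.29 ± 0.10 (edgeR adjusted p = 0.057). With RLE factors it passed (adjusted p = 0.047), where 20.3% of all genes were higher. Hoxd3 had 0.694, 0.65 and 0.753 CPM in controls and 1.06, 0.758 and 0.949 CPM with VitC (log2 0.40 ± 0.23, edgeR adjusted p = 0.189). In all, 7 of 14 Hox genes had groups that did not overlap, against 54.7% of all genes tested. Summed over a cluster, HoxB RNA was 32.7 to 36.1 CPM in controls and 28.1 to 31.3 CPM with VitC, HoxC RNA 20.8 to 24.8 and 20.5 to 22.2 CPM, and HoxD RNA 5.37 to 5.48 and 6.14 to 7.25 CPM. The order of the groups thus differed between HoxB and HoxD, and this difference was not tested. The sources used here do not state whether counting used strand, so RNA of overlapping or antisense transcripts in the clusters cannot be told apart from that of the named genes.

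**Figure D1:**
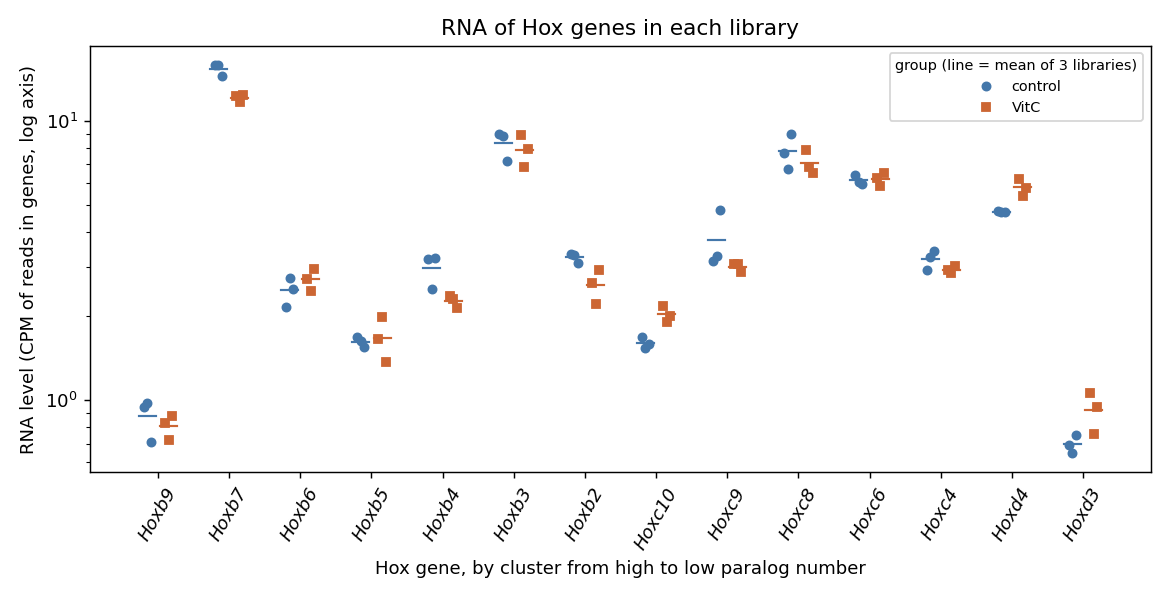
RNA level in CPM (log axis) of the 14 Hox genes with reads, with 3 control (circles) and 3 VitC libraries (squares) per gene and a line at each mean. Hoxb7 lies between 14.5 and 15.8 CPM in controls and between 11.6 and 12.3 CPM with VitC.

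5hmC over the Hox peaks was mostly higher with VitC. Of 31 peaks, 21 were higher, 2 were lower (at Hoxd11 and Hoxb3) and 8 did not pass edgeR's quasi-likelihood test at an adjusted p of 0.05. Of all 215951 peaks, 36.7% were called higher and 37.7% lower. The median log2 change was 0.29 over the Hox peaks and 0.03 over all peaks. The samples did not overlap at 22 Hox peaks with higher and 3 with lower values under VitC, against 41.4% and 40.2% of all peaks. HoxB had 8 higher and 1 lower of 13 peaks, HoxC 7 and 0 of 10, and HoxD 6 and 1 of 8. All 3 Promoter1k peaks were higher, against 42.3% of that class in the whole list. Of 15 Promoter3k peaks 10 were higher and 1 lower, against 42.2% and 31.5%, and of 13 gene body peaks 8 were higher and 1 lower, against 44.3% and 29.7%. DESeq2 called 10 Hox peaks higher and 2 lower, against 25.7% and 33.6% of all peaks.

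On the chromosomes that the peak list runs through exactly 2 times, the direction of change followed the run. Of 56725 peaks in the first run 88.2% were lower, and of 122518 in the second run 52.4% were higher and 14.1% lower. Peaks on other chromosomes were given no run, so these shares do not cover all 215951 peaks. The sources used here do not say what sets the run of a peak. Of the Hox peaks, 28 were in the second run, and 20 of these were higher and 1 lower, with a median log2 change of 0.32 against 0.28 for all second-run peaks. The 3 first-run Hox peaks were those of Hoxd11 (lower), Hoxc6 (higher) and Hoxc8 (not called). The Promoter1k Hox peaks all lay in the second run. Of second-run peaks in the whole list, 57.5% of Promoter1k, 55.5% of Promoter3k and 57% of gene body peaks were higher. In the same classes 11.7%, 12% and 12.4% were lower. The median over the Hox peaks thus lay near that of the run most of them belonged to.

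**Figure D2:**
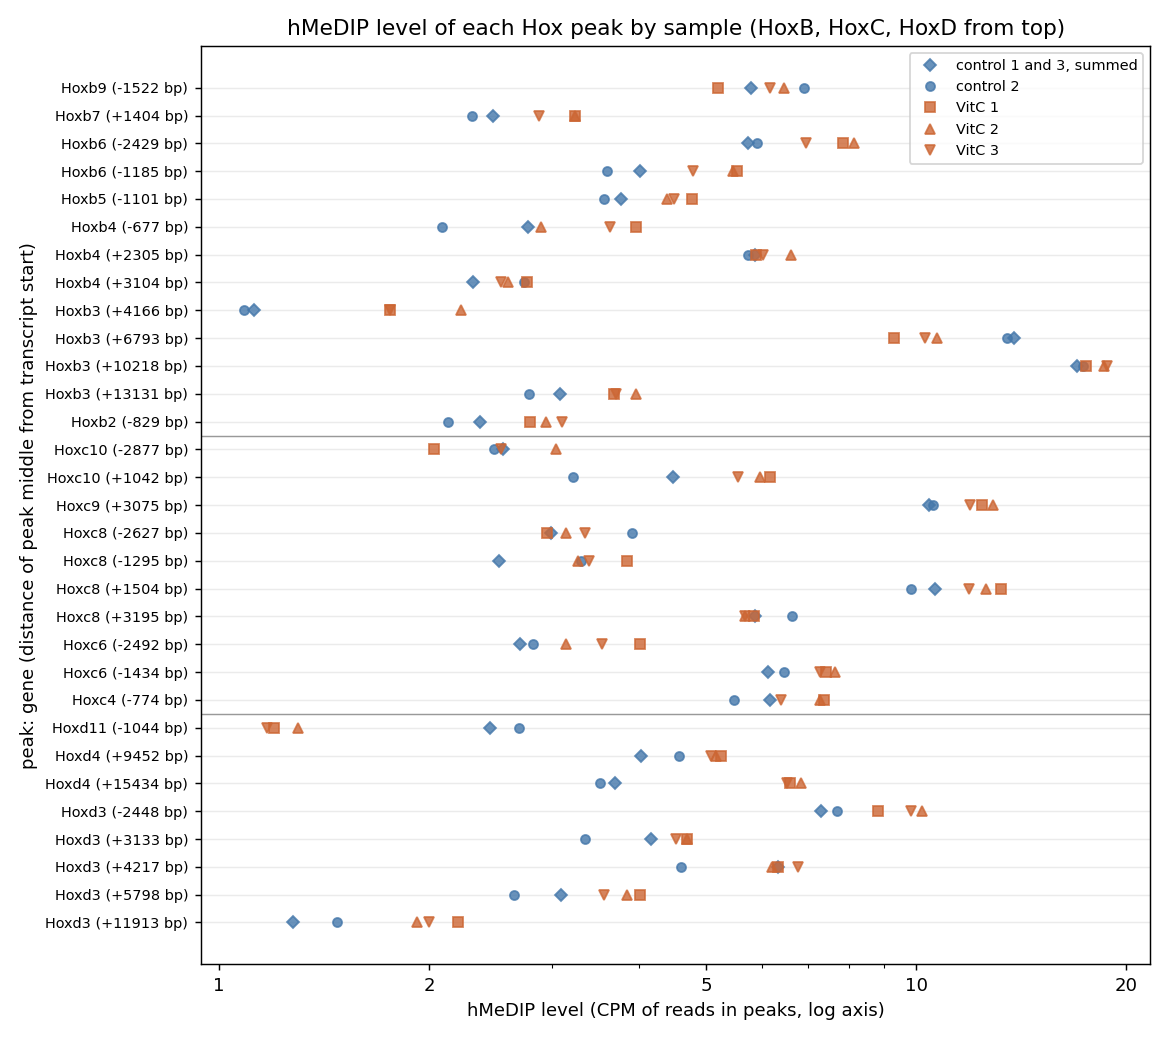
hMeDIP level in CPM of reads in peaks (log axis) of each of the 31 Hox peaks, named by gene and distance of the peak's middle from the transcript start. Blue points are the 2 control samples and orange points the 3 VitC samples; the orange points lie right of the blue ones at 22 peaks and left of them at 3, among them Hoxd11.

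The Hoxd11 peak lost the most 5hmC of all Hox peaks. This peak (chr3:61603479-61603778, 894 bp upstream of the start of Hoxd11) had 2.45 and 2.69 CPM of reads in peaks in the control samples and 1.2, 1.30 and 1.17 CPM with VitC. All VitC samples lay under both controls, at a fold of 0.485 (log2 -1.04 ± 0.16, edgeR adjusted p = 1.0e-07). It is the gene with no RNA read in any library. Its peak was also the only member of the first run called lower, in a run with a median log2 change of -1.01.

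Of the other 7 HoxD peaks, 6 gained 5hmC. The Hoxd4 peak chr3:61648562-61650317, in the gene body and with its middle 15434 bp from the listed start, had 3.69 and 3.52 CPM in controls and 6.58, 6.83 and 6.52 CPM with VitC. All VitC samples lay far above both controls, a 1.83-fold rise and the largest among Hox peaks (log2 0.87 ± 0.10, edgeR adjusted p = 5.1e-11). The other Hoxd4 peak rose by 0.30 ± 0.10 on the log2 scale. Hoxd3 had 5 peaks. Its upstream peak (chr3:61655007-61656587) had 7.30 and 7.69 CPM in controls and 8.81, 10.2 and 9.84 CPM with VitC (log2 0.38 ± 0.08). Its last gene body peak (chr3:61669949-61670368) had 1.28 and 1.48 CPM in controls and 2.20, 1.92 and 2.0 CPM with VitC (log2 0.61 ± 0.17, edgeR adjusted p = 0.0012). The VitC samples of both peaks lay above the controls. Of the 3 peaks between them, 2 rose (log2 0.24 and 0.36) and 1 did not pass (log2 0.15 ± 0.09).

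In HoxC, the strongest gain among Hox-named peaks was at Hoxc10. The peak just inside the gene (chr7:144577867-144579147, 402 bp past the start) had 4.47 and 3.21 CPM in controls and 6.16, 5.96 and 5.54 CPM with VitC, above the controls in every sample (log2 0.52 ± 0.10, edgeR adjusted p = 1.6e-05). The upstream Hoxc10 peak did not pass (log2 0.02 ± 0.14). The only peak of Hoxc9 (chr7:144598178-144599893) is labelled gene body but runs past the listed end of the gene. It had 10.4 and 10.6 CPM in controls and 12.4, 12.9 and 11.9 CPM with VitC (log2 0.24 ± 0.07, edgeR adjusted p = 0.00084). Hoxc8 had 4 peaks, and the one 362 bp past its start (chr7:144605420-144607704) had 10.6 and 9.81 CPM in controls and 13.2, 12.6 and 11.9 CPM with VitC (log2 0.27 ± 0.07, edgeR adjusted p = 0.00028). For Hoxc9 and Hoxc8 alike the groups did not overlap. Of the other Hoxc8 peaks, the middle upstream one rose (log2 0.34 ± 0.13), while the outer upstream and the gene body peak did not pass (log2 -0.05 and -0.09). Both upstream peaks of Hoxc6 rose (log2 0.37 ± 0.13 and 0.26 ± 0.08), and so did the peak of Hoxc4 (chr7:144646076-144647550), with 6.18 and 5.47 CPM in controls and 7.36, 7.28 and 6.40 CPM with VitC (log2 0.23 ± 0.09, edgeR adjusted p = 0.016).

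HoxB held neighbouring peaks that moved in opposite directions inside Hoxb3. The second of the 4 Hoxb3 peaks (chr10:84188291-84189531) had 13.8 and 13.5 CPM in controls and 9.29, 10.7 and 10.3 CPM with VitC. Every VitC sample lay under both controls (log2 -0.44 ± 0.07, edgeR adjusted p = 5.9e-08). The first (chr10:84186104-84186465) had 1.12 and 1.09 CPM in controls and 1.76, 2.22 and 1.76 CPM with VitC (log2 0.78 ± 0.18, edgeR adjusted p = 1.4e-04). The third (chr10:84190228-84194444), the widest and highest Hox peak, had 17.0 and 17.3 CPM in controls and 17.5, 18.6 and 18.8 CPM with VitC and did not pass (log2 0.10 ± 0.06, edgeR adjusted p = 0.100). The fourth rose by 0.34 ± 0.12 on the log2 scale. When libraries were scaled by all counted reads, the fall of the second peak was lost (log2 0.014) and the other 3 peaks were called higher.

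At the other HoxB genes, the peaks upstream of Hoxb6, Hoxb5, Hoxb4 and Hoxb2 rose. The peaks of Hoxb6 at chr10:84144837-84145978 and chr10:84146143-84147159 had 5.73 and 5.91 CPM, and 4.01 and 3.60 CPM, in controls. With VitC they had 7.84, 8.13 and 6.96 CPM, and 5.52, 5.46 and 4.78 CPM, so the groups were apart at both (log2 0.40 ± 0.09 and 0.43 ± 0.10, edgeR adjusted p = 5.3e-05 and 2.5e-04). The Promoter1k peak of Hoxb4 (chr10:84166339-84166970) had 2.77 and 2.08 CPM in controls and 3.96, 2.89 and 3.64 CPM with VitC (log2 0.44 ± 0.13, edgeR adjusted p = 0.0031). That of Hoxb2 (chr10:84199693-84200409) had 2.36 and 2.13 CPM in controls and 2.79, 2.94 and 3.10 CPM with VitC (log2 0.36 ± 0.13, edgeR adjusted p = 0.013). The peaks of Hoxb5 and Hoxb7 rose by 0.29 ± 0.11 and 0.37 ± 0.13. That of Hoxb9 had 5.80 and 6.90 CPM in controls and 5.19, 6.46 and 6.18 CPM with VitC, which overlapped (log2 -0.04 ± 0.09), and the 2 further Hoxb4 peaks had log2 changes of 0.09 and 0.10 that did not pass.

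The input libraries showed no called change: 0 of 31 Hox peaks passed edgeR's test, with 4 at an unadjusted p under 0.05, and DESeq2 called none. Over all peaks 0% were called in the input by edgeR. In a fit of hMeDIP and input together, enrichment over input rose at 11 Hox peaks and fell at 2, the Hoxd11 peak and the second Hoxb3 peak (edgeR, adjusted p of 0.05), against 21.1% and 28.7% of all peaks. Enrichment rose most at the first Hoxb3 peak (log2 1.06 ± 0.32), the last Hoxd3 peak (1.01 ± 0.31), the Hoxc10 peak inside the gene (1.01 ± 0.20), the Promoter1k peak of Hoxb4 (0.90 ± 0.26) and the rising gene body peak of Hoxd4 (0.90 ± 0.18). Among the 28 second-run Hox peaks enrichment rose at 11 and fell at 1, against 30.1% and 6.61% of all second-run peaks. Of the 21 peaks with higher hMeDIP, 10 also had higher enrichment. Hox peaks held 25 to 770 hMeDIP reads but only 12 to 214 input reads per library, so the enrichment of each peak is the less precise measure. Without VitC replicate 1, 6 peaks were called higher. Without control replicate 3 or VitC replicate 3, 1 peak was called lower, and Hoxd11's call was lost.

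The tests above centre the libraries on their typical peak, which removes a change shared by most peaks. Peaks held 30.8% to 35.7% of counted hMeDIP reads in controls and 40.8% to 43.9% with VitC. Whether this shared shift reflects 5hmC or the yield of the immunoprecipitation was not tested, and values scaled by all counted reads contain it. Relative to all counted reads, and summed over the 31 Hox peaks, hMeDIP was 3.22, 2.98 and 3.50 times the input in controls and 4.97, 5.32 and 5.00 times with VitC. All VitC samples lay above all controls. Summed over the whole list the ratio was 3.57 to 4.18 in controls and 4.83 to 5.11 with VitC. The VitC mean was thus 1.58 times the control mean over the Hox peaks and 1.29 times over all peaks. This difference was not tested, and 28 of the 31 Hox peaks were in the second run, where most called peaks were higher. By cluster, HoxB went from 3.00 to 3.50 in controls to 4.56 to 4.94 with VitC, HoxC from 3.00 to 3.52 to 5.22 to 5.50, and HoxD from 2.78 to 3.48 to 5.13 to 5.90. On this scaling 29 Hox peaks were called higher and 1, at Hoxd11, lower, against 61.4% and 24.5% of all peaks, and the median log2 change was 0.73 against 0.48 for all peaks. Enrichment over input on this scaling was called higher at 25 and lower at 0 Hox peaks, against 47.4% and 16.3% of all peaks. Of all second-run peaks, 84.7% were higher and 2.42% lower in hMeDIP on this scaling, and 66.2% and 1.1% in enrichment. Each of the 31 peaks had more hMeDIP than input in every library, which their choice from a list of hMeDIP peaks favours. In controls the ratio was highest, at 8.31 to 9.55, at the second Hoxb3 peak.

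**Figure D3:**
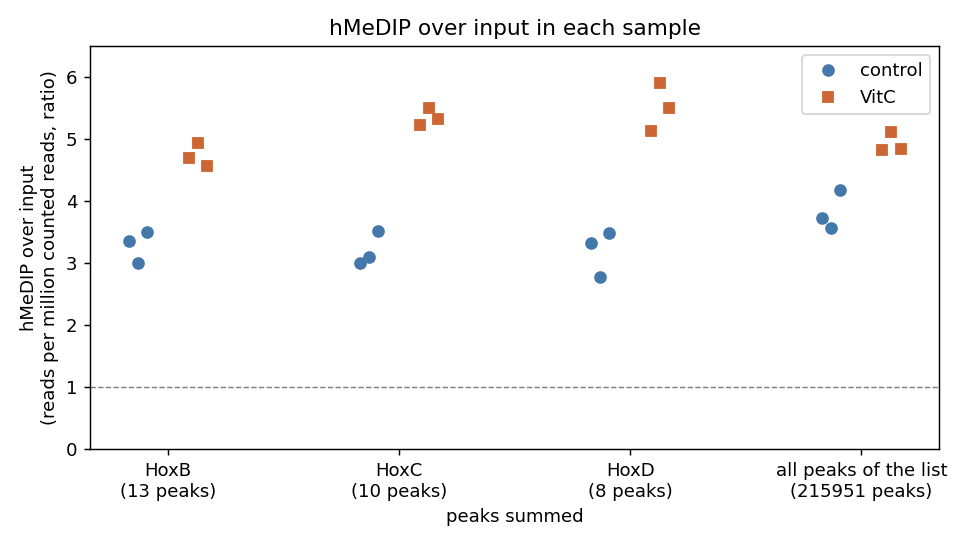
Ratio of hMeDIP to input, each as a share of all counted reads, summed over the peaks of each Hox cluster and over the whole list, with 3 control (circles) and 3 VitC samples (squares). In every cluster all VitC samples lie at 4.56 or above and all controls at 3.52 or under; the dashed line marks a ratio of 1.

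Peaks around the members were compared after the Hox values had been seen. Between the first and last Hox peak of each cluster lay 27 peaks without a Hox name, of which 13 were higher and 4 lower (median log2 0.23), beside 36.7% and 37.7% of all peaks and 52.4% and 14.1% of second-run peaks. Of these 27, 1 was in the first run of the list. Within 200 kb on either side lay 101 peaks, of which 29 were higher and 51 lower (median log2 -0.27), and 45 of these 101 were in the first run, so the in-cluster and flanking peaks also differ in run. The in-cluster peaks included 6 named for the microRNA genes of the clusters, which repress target mRNAs through the seed, bases 2 to 8 of the mature strand, and which include Hox mRNAs among their known targets. The mature sequences from RefSeq (GRCr8) are shown because 5 of these 6 peaks rose, with the seed counted from the listed first base in capitals. The sequences of miR-10a-5p and miR-10b-5p match over most of their length but are listed from different first bases. Their capitals therefore mark shifted stretches of a shared sequence and do not show that their seeds differ.
miR-10a-5p: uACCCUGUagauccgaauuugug
miR-10b-5p: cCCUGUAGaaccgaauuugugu
miR-196a-5p: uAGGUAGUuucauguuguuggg
miR-615: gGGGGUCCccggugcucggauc
The Mir10b peak in HoxD had 1.33 and 1.30 CPM in controls and 2.09, 2.54 and 1.93 CPM with VitC (log2 0.73 ± 0.17). The Mir615 peak in HoxC had 7.11 and 6.77 CPM in controls and 10.1, 10.5 and 9.50 CPM with VitC (log2 0.51 ± 0.08). All VitC samples of both peaks lay above the controls. The Mir196a peaks rose by 0.41 ± 0.10 and 0.53 ± 0.10, and of the Mir10a peaks 1 rose (0.37 ± 0.14) and 1 did not pass (0.09 ± 0.06). At most 3 RNA reads per library were counted at these microRNA genes, so their RNA was not tested.

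**Figure D4:**
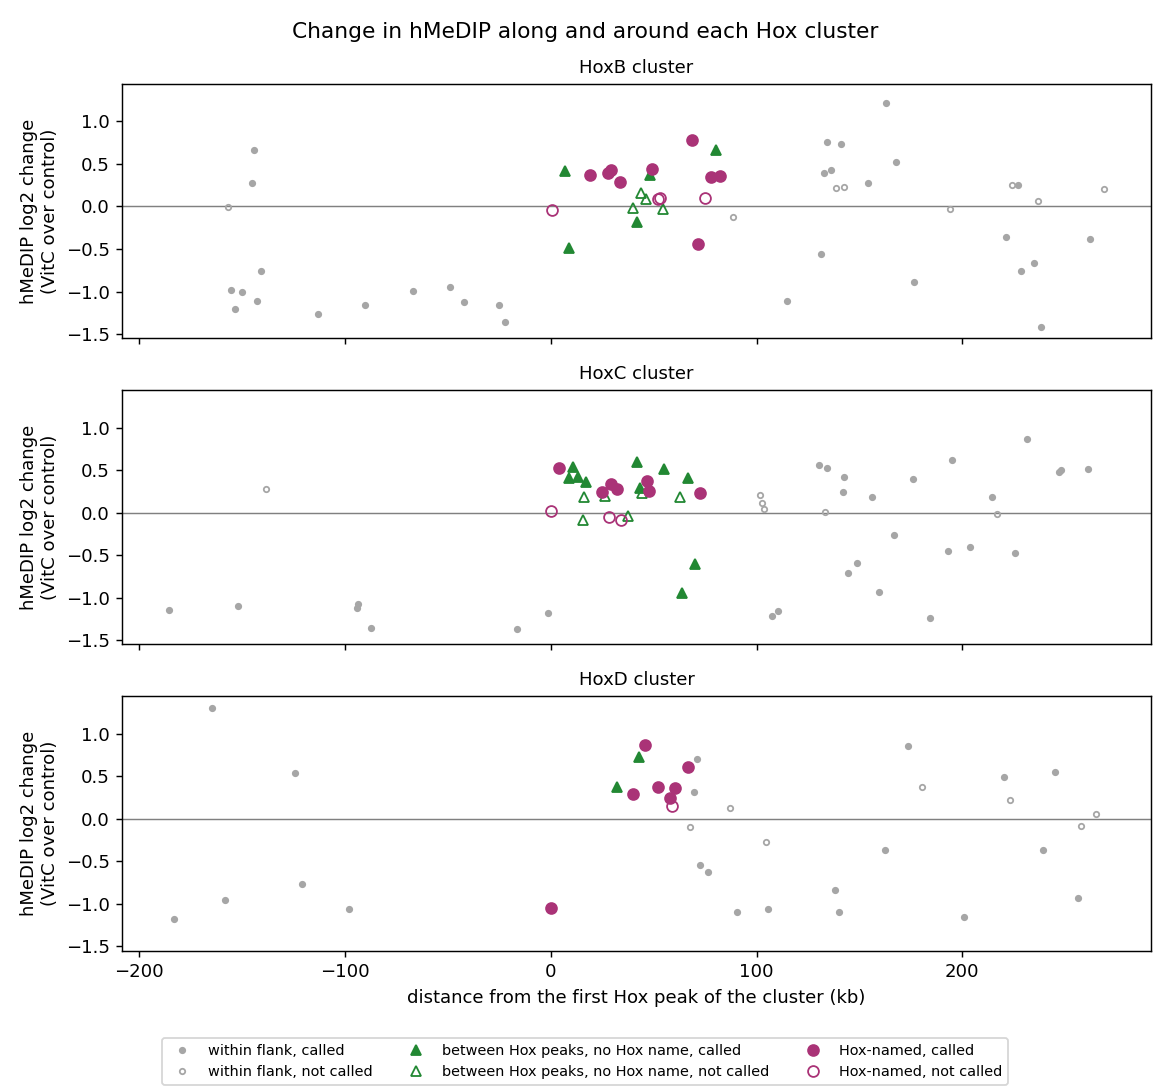
Log2 change in hMeDIP (VitC over control) of each peak against its distance in kb from the first Hox peak of the cluster, for Hox-named peaks (purple), other peaks between them (green) and peaks within 200 kb (grey). Filled symbols passed an adjusted p of 0.05; most Hox-named peaks lie above 0, with the Hoxd11 peak near -1.04 at the left end of HoxD.

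RNA and 5hmC changes were set side by side for the 14 genes with both. Of 13 genes whose median peak change was above 0, 7 had a negative and 6 a positive RNA log2 change. Hoxb7, the gene with lower RNA, had higher hMeDIP at its only peak (2.47 and 2.30 CPM in controls, 3.24, 3.24 and 2.88 CPM with VitC). Hoxd4 and Hoxd3 had positive values in both measures, with median peak changes of 0.58 and 0.36. Across the 14 genes Pearson's r was 0.44 and Spearman's rho 0.38, as a description of genes that share the same libraries.

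**Figure D5:**
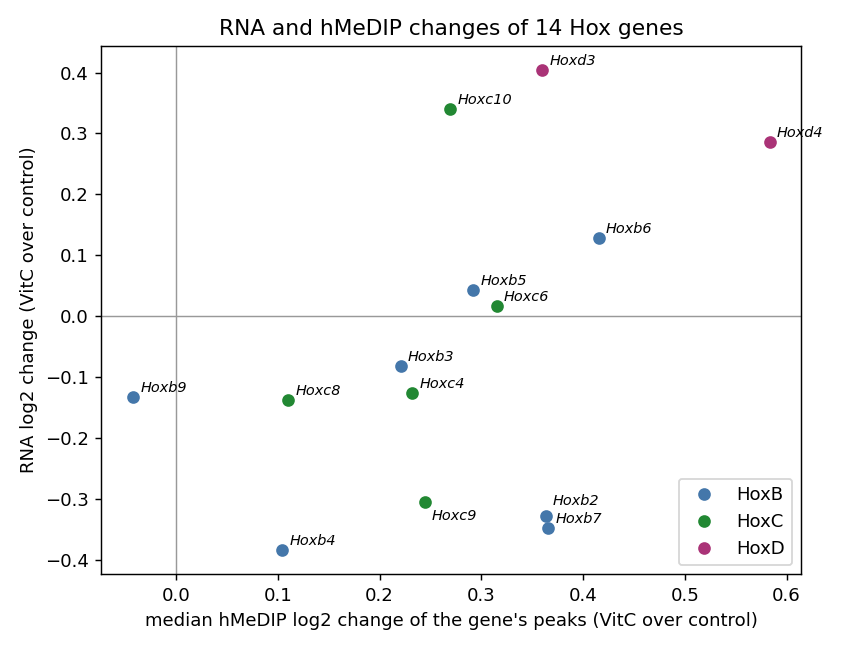
RNA log2 change of each of 14 Hox genes against the median hMeDIP log2 change of its peaks, coloured by cluster. Of the 13 genes right of 0, 7 lie under the horizontal line and 6 above it.

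Genes that act with or on Hox genes were counted from lists. Of 9 Hox cofactors, the PBC and MEINOX homeodomain proteins that bind DNA together with Hox proteins, 3 were higher (Meis1, Pbx3 and Pknox2) and 1 lower (Meis3) in RNA. Meis1 rose from 20.9 ± 1.7 to 34.0 ± 8.6 CPM (mean ± SD, n = 3, log2 0.70 ± 0.16, edgeR adjusted p = 0.0089). Pbx3 went from 42.0 ± 3.0 to 64.9 ± 18.4 CPM and Pknox2 from 65.7 ± 4.3 to 101 ± 34 CPM. The 3 higher genes thus spread more with VitC than in controls, while Meis3 went from 39.1 ± 1.6 to 31.1 ± 1.6 CPM. Fits of list genes without VitC replicate 1, which stood apart, are not given here. Of 23 Polycomb genes, which keep Hox clusters silent, 4 were higher and 5 lower, with Phf19 (log2 0.72 ± 0.19), Pcgf5 (0.68 ± 0.14) and Pcgf2 (-0.52 ± 0.11) the largest. Of 14 trithorax and H3K27 demethylase genes, which keep them active, 0 were higher and 3 lower (Dpy30, Men1 and Wdr5, log2 -0.33, -0.27 and -0.17). These shares stand beside 19.1% and 21.0% of all genes. The median log2 changes of the lists were 0.18, 0.05 and 0.14.

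Retinoic acid induces Hox genes in the embryo. Of 14 tested genes of its pathway 7 rose, beside 19.1% of all genes, and others fell. The receptors Rarb, Rarg, Rxra, Rxrb and Rxrg, the retinol dehydrogenase Rdh10 and the binding protein Crabp1 rose, while Crabp2, Aldh1a1 and Dhrs3 fell. Crabp2, which carries retinoic acid to the nucleus, fell from 269 ± 9.6 to 98.0 ± 9.5 CPM (log2 -1.45 ± 0.08, edgeR adjusted p = 4.5e-06). Aldh1a1, which makes retinoic acid, fell from 2.09 ± 0.30 to 0.621 ± 0.11 CPM (log2 -1.74 ± 0.22, edgeR adjusted p = 4.0e-04), and Rarb rose from 7.32 ± 0.53 to 13.5 ± 2.9 CPM (log2 0.88 ± 0.15, edgeR adjusted p = 0.0022). The called receptors thus rose, while Crabp2 and Aldh1a1 fell. Of 9 insulator, inducer and partner genes, 3 rose and 1 fell, with Egr2, which activates Hoxb2 in the hindbrain, at 2.09 ± 0.38 and 6.76 ± 0.76 CPM (log2 1.69 ± 0.16) and Fgf8 at 3.91 ± 0.75 and 0.745 ± 0.31 CPM (log2 -2.39 ± 0.28). Of 17 tested genes listed as neighbours of the clusters, 3 rose (Chn1, Lnpk and Cbx5, log2 0.40, 0.32 and 0.21) and 1 fell (Copz1, log2 -0.25). The 17 include Tfap2a (log2 0.39, not called), which does not lie beside a Hox cluster. The counts of these lists stand beside 19.1% higher and 21.0% lower of all genes.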

How the data were processed

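For RNA the deposited values are whole-number counts per gene, and for hMeDIP and input they are counts per peak of an accompanying peak list. Tools named in the submitters' processing notes are STAR, BWA, HTSeq, Trim Galore and CASAVA 1.4. The sources used here name no genome build, annotation, peak caller or strand setting. Entries naming no gene or peak (42.3% to 53.9% of RNA, 56.1% to 69.2% of hMeDIP and 91.3% to 91.6% of input reads) were left out. Each assay was fitted alone with edgeR 4.0.16 (R 4.3.3; quasi-likelihood F test, TMM factors, default expression filter, Benjamini-Hochberg over all features, threshold 0.05). Enrichment was the assay by treatment term over hMeDIP and input with a term per sample. SE is the log2 change divided by the square root of F. Scripts were tested on simulated data. Alternatives used DESeq2 1.42.0; pandas 2.3.3, numpy 2.4.6 and matplotlib 3.10.9 on Python 3.11.15 made the summaries.

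Members and lists were chosen with earlier results of these data known. Named were Hox genes that passed or had a mean of at least 1 CPM, per cluster up to 3 called peaks of smallest p per direction, the highest peak and promoter peaks of named genes, and up to 3 called genes per list. Hoxb9, Hoxd3, the remaining peaks and further list genes were named after their values were seen. A gene of the retinoic acid list is not reported here. Alternatives were other scaling, no filter, DESeq2, a replicate block and leaving out each replicate.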

Additional observations from a re-analysis of the deposited data

How the results depend on the processing

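The call of lower Hoxb7 RNA held in all 11 alternatives (adjusted p 0.0038 to 0.040). With RLE factors 1 Hox gene, Hoxd4, was called higher, and with library size only 2 were called lower, Hoxb4 joining Hoxb7. For hMeDIP, 10 of the 21 higher calls held in all 14 alternatives, and 5 were lost only with DESeq2, which called 10 higher. The lower call at Hoxd11 held in all 14, and that at the second Hoxb3 peak was lost only when scaled by all counted reads. Leaving out hMeDIP control replicate 2 left controls 1 and 3, which were summed, as the only control sample. That alternative had no spread between controls, so ranges over the left-out replicates are not given here. Scaling by all counted reads left 1 lower call, at Hoxd11, and turned the log2 changes of the Hoxb9 peak (0.39), the second Hoxb3 peak (0.014) and the outer upstream (0.38) and gene body (0.35) peaks of Hoxc8 from negative to positive, as this scaling keeps the shift shared by most peaks. It gave 25 higher and 0 lower calls of enrichment over input. Leaving out VitC replicate 1 gave 6 higher calls of enrichment, and leaving out control replicate 3 or VitC replicate 3 gave 1 lower call. Of the 11 higher calls of enrichment, 6 held in all 13 alternatives. The summing of replicates 1 and 3 in both groups, added after seeing the data, gave 21 higher and 2 lower hMeDIP calls, and 11 and 2 for enrichment. Deviations of same-numbered control and VitC samples correlated at 0.17, 0.05 and 0.01 for RNA and at -0.03, -0.20 and -0.11 for hMeDIP. Centring within each small group ties these values together, so they cannot exclude a pairing by number. The main fits did not treat same-numbered control and VitC samples as pairs. A replicate block gave 0 higher and 1 lower RNA call, 21 and 2 hMeDIP calls and 11 and 2 enrichment calls. The input held 12 to 214 reads per Hox peak and library, which limits the precision of the enrichment values.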
